A study of Mus musculus with 6 samples.

Results

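Immediate-early genes are switched on within minutes of a stimulus, without new protein synthesis, and many encode transcription factors of the AP-1, EGR, NR4A and KLF families. Their products then drive feedback genes, such as phosphatases, RNA-binding proteins and inhibitors of NF-κB and STAT signalling, that end the response. Heat shock genes are switched on by HSF1 when proteins misfold. Many genes of these kinds, though not every one, are known to rise when tissue is digested with enzymes at body temperature, as is done to free mammary epithelial cells (MECs). Here 38 such genes were followed, named from a list of immediate-early, NF-κB feedback and heat shock genes, out of 55487 genes in the count table. All 38 were present once in the table, and all 38 passed the filter on low counts.

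The counts come from MECs of female BALB/c mice at 10 weeks of age, 3 wild-type and 3 IL-21isoTg, with 1 library for each mouse. IL-21isoTg mice carry a transgene for a membrane-bound isoform of IL-21 that is expressed specifically in T cells. MECs of both genotypes were freed from minced glands with collagenase, DNase, trypsin and dispase, and cells carrying CD45, CD31 or CD140a were then removed with magnetic beads. The mice were virgin, with estrous stages left to chance. Tissue that had not been digested was not analysed here, so expression in the living gland and induction during digestion cannot be told apart.

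The total count on genes was 15902886 to 25719244 per mouse. The luminal markers Krt8 and Epcam and the basal markers Krt14 and Acta2 were well expressed in all mice (674 to 3009 CPM for the luminal pair and 223 to 1013 CPM for the basal pair; CPM, counts scaled to library size with TMM), while Ptprc, which encodes CD45, was at 2.16 to 9.40 CPM. Secretory genes of the salivary glands, which mammary epithelium is not expected to contain, were abundant. In wild-type mice a list of 15 such genes held 22.6%, 6.52% and 15.4% of all reads counted, and in IL-21isoTg mice 22.1%, 4.86% and 40.2%. Of the cell types that the beads should remove, fibroblasts had the highest summed markers. The sum of 5 fibroblast markers, all detected, was 1339 to 2441 CPM in wild-type and 2736 to 3428 CPM in IL-21isoTg mice, without overlap (exact permutation test, two-sided, p = 0.1, the smallest that 3 mice against 3 allow). Col1a1, Col1a2 and Lum were each higher without overlap, while Pdgfra, which encodes the bead target CD140a, overlapped (15.8, 40.2 and 48.5 against 60.4, 50.5 and 43.7 CPM) and Dcn overlapped with a log2 fold change of -0.27. Summed over 4 endothelial markers, the level was 52.1, 132.9 and 55.3 CPM in wild-type and 231.9, 173.0 and 83.7 CPM in IL-21isoTg mice, which overlapped. Among these, Cdh5 was higher in IL-21isoTg mice without overlap, while Kdr, Emcn and Pecam1, which encodes the bead target CD31, overlapped. In bulk RNA, fewer cells of a type and less RNA per cell cannot be told apart.

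The 38 genes were among the most abundant transcripts of these preparations. Together they made up 1.51%, 3.89% and 3.66% of each wild-type library and 2.82%, 3.16% and 1.30% of each IL-21isoTg library. With the salivary genes left out of the total, these shares became 1.95%, 4.17% and 4.33% for wild-type and 3.62%, 3.32% and 2.17% for IL-21isoTg libraries. The first wild-type mouse and the third IL-21isoTg mouse had the smallest shares on both scales, and the 2 genotypes overlapped. Levels were compared between genes as CPM per kilobase of exon, averaged over the 6 mice. On this scale 33 of the 38 were in the top 10% of the 17145 tested genes that had an annotated exon length, and 14 were in the top 1%. The highest was Jund with 1247 CPM per kb (rank 26), followed by Fos with 1026 (rank 33), Jun with 823 (rank 40), Junb with 702 (rank 47) and Atf3 with 699 (rank 48). At the other end stood Dusp2, a phosphatase gene best known from lymphocytes, with 1.64 CPM per kb (rank 11644). Egr2, Egr3, Nr4a2 and Nr4a3 were also well below the rest, with 8.47 to 9.98 CPM per kb.

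**Figure D1:**
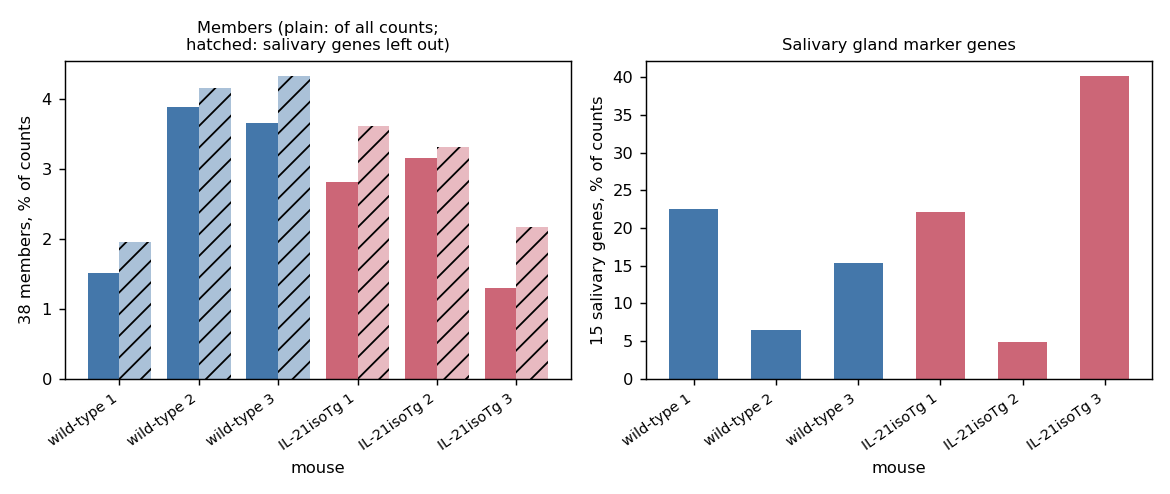
Share of counts per mouse taken by the 38 immediate-early and stress genes (left, plain bars of all counts, hatched bars with salivary genes left out of the total) and by 15 salivary gland genes (right), in percent. Bars are single libraries, blue for wild-type and red for IL-21isoTg; the 38 genes take least in wild-type mouse 1 and IL-21isoTg mouse 3, while wild-type mouse 1 and IL-21isoTg mouse 1 have nearly the same salivary share.

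None of the 38 genes was called between the genotypes. At an adjusted p under 0.05 in edgeR's quasi-likelihood test, 0 of 38 passed, beside 0% of all 17165 genes tested, and the smallest adjusted p among the 38 was 0.809. At an unadjusted p under 0.05 there was 1 of 38, Gadd45b, against 5.82% of all genes tested (3.19% higher and 2.63% lower in IL-21isoTg mice). By other tools, 0 of the 38 were called by DESeq2 (0.467% of all genes), edgeR's likelihood ratio test (65 of 17165 genes) or limma-voom (0 of 17165 genes). Each of these tools also had 1 of the 38 at an unadjusted p under 0.05. Over all genes, this threshold was passed by 1190 of 17137 in DESeq2, 1011 of 17165 in the likelihood ratio test and 960 of 17165 in limma-voom. In 2 of the 38, Gadd45b and Myc, the lowest IL-21isoTg mouse exceeded the highest wild-type mouse, and in 0 the reverse held. This is 5.26% of the list, beside 12.1% of all genes tested without overlap (5.54% higher and 6.54% lower in IL-21isoTg mice). The log2 fold change (IL-21isoTg minus wild-type) was above 0 in 21 of the 38 and below 0 in 17 (47.9% of all genes tested were above 0), with a median of 0.029 and a range of -0.41 to 0.59, beside a median of -0.019 over all genes tested. The balance of directions rested on single libraries: without wild-type mouse 1 there were 15 above 0 and 23 below with a median of -0.155, and without IL-21isoTg mouse 3 there were 31 above and 7 below with a median of 0.207.

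**Figure D2:**
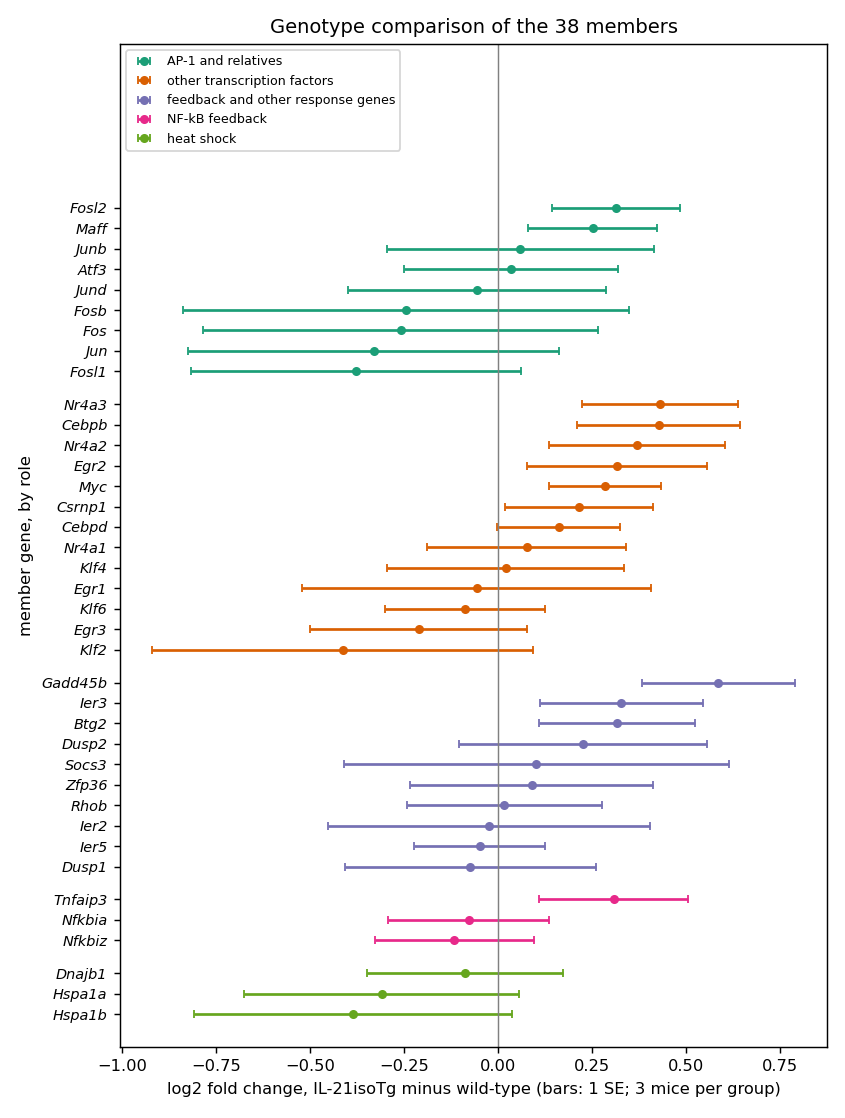
Log2 fold change of each of the 38 genes (x axis, IL-21isoTg minus wild-type, edgeR's quasi-likelihood fit, 3 mice per group) by role, with bars of 1 standard error. The estimates run from -0.41 for Klf2 to 0.59 for Gadd45b, and the bars are widest for Fosb, Fos, Socs3, Klf2 and Jun.

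Gadd45b encodes a small stress protein that binds MAP kinase kinases and takes part in the response to DNA damage and to TGF-β and NF-κB signals. The gene spans chr10:80930073-80932204 (GRCm38, plus strand). Its level was 158, 229.8 and 235.5 CPM in the wild-type mice and 349.6, 299 and 288 CPM in the IL-21isoTg mice. The lowest value was that of wild-type mouse 1, and the groups did not overlap. Its log2 fold change of 0.59 (standard error 0.20) did not pass in edgeR's quasi-likelihood test, with an adjusted p of 0.809 over all genes. Leaving out single mice kept the fold change between 0.438 and 0.686, and its unadjusted p was no longer under 0.05 without IL-21isoTg mouse 1 alone. Of the 5 fibroblast markers, Col1a1, Col1a2 and Lum were also higher in IL-21isoTg mice without overlap and Pdgfra and Dcn were not. Of the 4 endothelial markers, Cdh5 was higher without overlap and Pecam1, Kdr and Emcn overlapped. The part of these markers in the value of Gadd45b was not tested.

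Myc encodes the transcription factor that drives growth and ribosome production. It was at 106, 104 and 119.8 CPM in the wild-type mice and at 139, 141 and 122 CPM in the IL-21isoTg mice. The groups did not overlap, but IL-21isoTg mouse 3 was only just above wild-type mouse 3. The log2 fold change of Myc was 0.28 (standard error 0.15, edgeR adjusted p = 0.809). Among the 38 genes Myc had the smallest spread within genotype, with an SD of 0.11 on the log2 CPM scale.

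Mice of the same genotype differed widely for some of these genes. Over all 6 mice, the highest was over 3-fold above the lowest for 8 of the 38 genes, Fosb, Socs3, Fos, Klf2, Jun, Fosl1, Hspa1b and Egr1. The ratio was 2- to 3-fold for 9 and under 1.5-fold for 7, Fosl2, Maff, Klf6, Myc, Cebpd, Ier5 and Nfkbia. For some, such as Socs3, Egr1 and Gadd45b, the highest and the lowest mouse were of different genotypes. Over the 38 genes the median SD within genotype was 0.36 on the log2 CPM scale, beside 0.35 over all genes tested. That overall figure includes scarce genes, whose counts scatter more. Among the 3398 genes with a mean of at least 50 CPM the median SD was 0.23, and for the 34 of the 38 above that level it was 0.37.

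**Figure D3:**
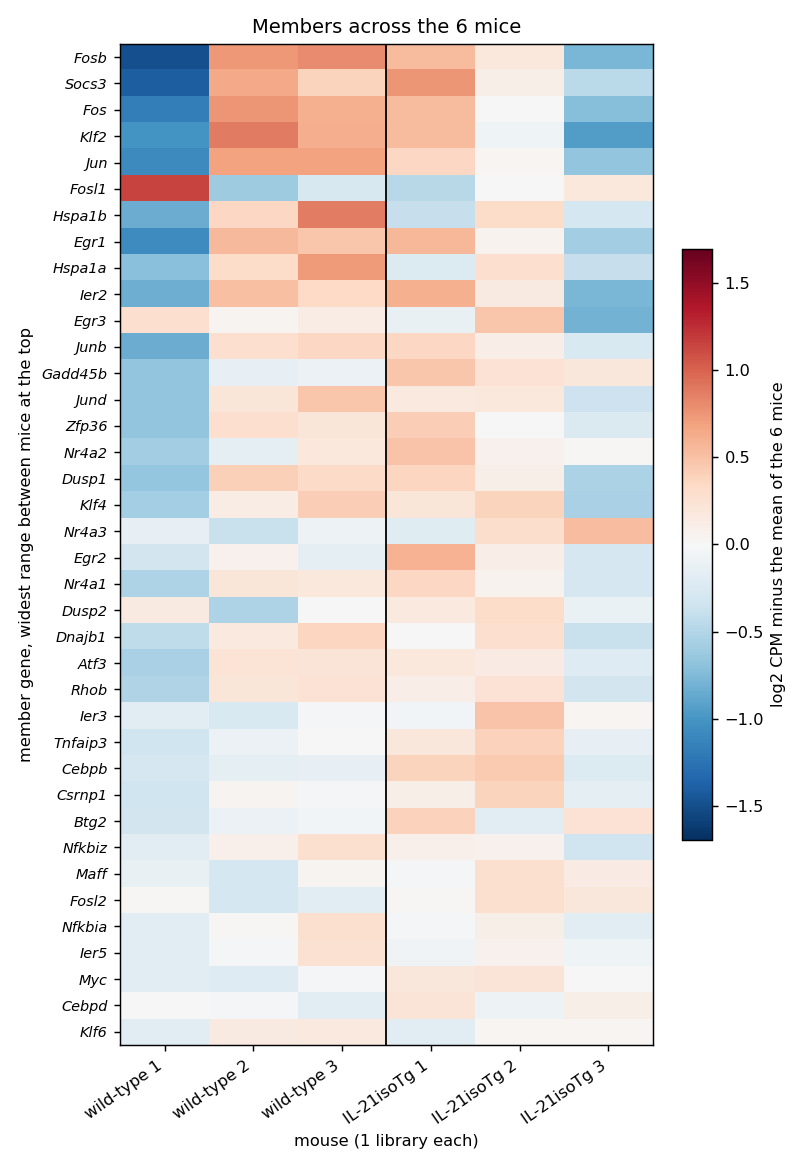
Level of each of the 38 genes in each mouse as log2 CPM minus its mean over the 6 mice (colour, blue below and red above the mean), ordered by the ratio of the highest to the lowest mouse. Columns are libraries, with a line between the genotypes; wild-type mouse 1 and IL-21isoTg mouse 3 are blue for most genes in the upper part, and Fosl1 is red in wild-type mouse 1.

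AP-1 is a dimer of FOS and JUN family proteins that binds the sequence TGANTCA, and Fos and Fosb are its most short-lived inducible partners. Fos (chromosome 12, 85473890 to 85477273, plus strand) was at 958, 3638 and 3292 CPM in the wild-type mice and at 3132.5, 2150.1 and 1312 CPM in the IL-21isoTg mice. Fosb (chromosome 7, 19302696 to 19310051, minus strand) was at 799.5, 3748 and 3916 CPM in the wild-type mice and at 3269.6, 2556 and 1316 CPM in the IL-21isoTg mice. For both genes wild-type mouse 1 was lowest, IL-21isoTg mouse 3 next, and the genotypes overlapped throughout. The ratio of the highest to the lowest mouse was 3.8 for Fos and 4.9 for Fosb, the widest of all 38. Their log2 fold changes between genotypes were -0.26 (standard error 0.53) and -0.24 (standard error 0.59), with edgeR adjusted p-values of 0.940 and 0.951.

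Jun, the main inducible partner of the FOS proteins, was at 1124, 3824 and 3825 CPM in the wild-type mice and 3042, 2439.5 and 1501 CPM in the IL-21isoTg mice. The order of the mice at the low end was that of Fos. Its log2 fold change was -0.33 (standard error 0.49, edgeR adjusted p = 0.921). Atf3, a stress-induced partner and repressor, spanned less, with 1009.6, 1730.0 and 1720.4 CPM in the wild-type mice and 1677, 1629.7 and 1265 CPM in the IL-21isoTg mice, and a log2 fold change of 0.04 (standard error 0.28, edgeR adjusted p = 0.985). Junb and Jund had highest-to-lowest ratios of 2.29 and 2.21, again with wild-type mouse 1 and IL-21isoTg mouse 3 lowest.

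Fosl1, which encodes FRA-1, an AP-1 partner that is made later and is itself a target of AP-1, ran the other way. It was at 121, 35.8 and 45.3 CPM in the wild-type mice and 39.4, 54.8 and 62.0 CPM in the IL-21isoTg mice. Wild-type mouse 1 was highest and IL-21isoTg mouse 3 next, so the mice with the least Fos had the most Fosl1. Its log2 fold change was -0.38 (standard error 0.44, edgeR adjusted p = 0.888). Without wild-type mouse 1 the estimate turned to 0.37. Of the exon sequence of Fosl1, 1163 of 2033 bp lie opposite Ccdc85b, whose counts were 113.1% to 192.5% of those of Fosl1, and whether reads were counted by strand is not given in the sources used here.

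Fosl2, encoding FRA-2, and Maff, encoding a small MAF protein, were the AP-1 relatives with the smallest p. Fosl2 was at 270.5, 216 and 232 CPM in the wild-type mice and 269, 321 and 305 CPM in the IL-21isoTg mice, and its log2 fold change was 0.32 (standard error 0.17, edgeR adjusted p = 0.809). Wild-type mouse 1 and IL-21isoTg mouse 1 were almost equal, which made the groups overlap. Maff was at 200.5, 178 and 227 CPM in the wild-type mice and 215, 265 and 242 CPM in the IL-21isoTg mice, and its log2 fold change was 0.25 (standard error 0.17, edgeR adjusted p = 0.825).

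**Figure D4:**
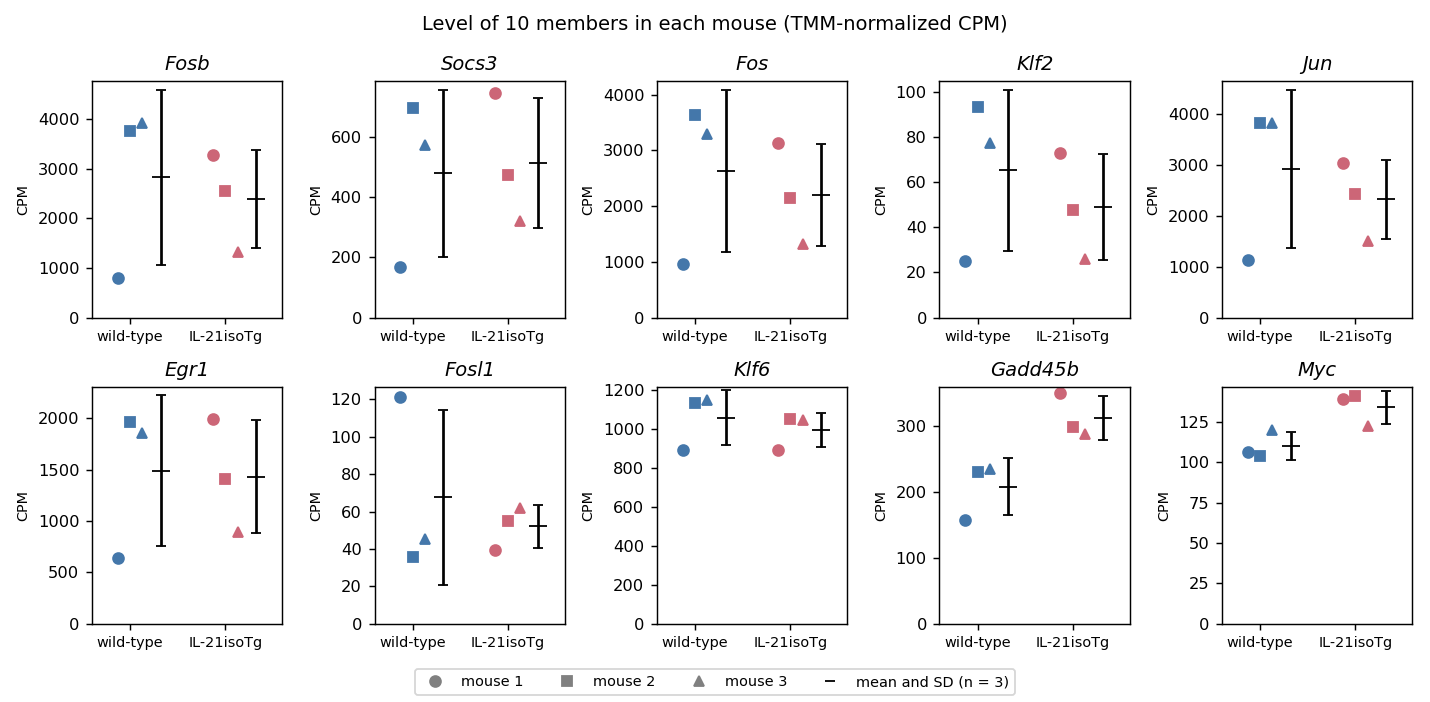
Level in CPM (y axis, linear, from 0) of 10 of the genes in each mouse, blue for wild-type and red for IL-21isoTg, with a marker shape per mouse number and a black bar for the mean and SD of 3 mice. Fosb, Socs3, Fos, Klf2, Jun and Egr1 are low in wild-type mouse 1 and IL-21isoTg mouse 3, Fosl1 is high in wild-type mouse 1, Klf6 is nearly level, and Gadd45b and Myc do not overlap between genotypes. The labels do not say that mouse numbers pair mice across genotypes.

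The same 2 mice were low for most of the list. Wild-type mouse 1 and IL-21isoTg mouse 3 were the 2 lowest of the 6 mice for 24 of the 38 genes (63.2%), beside 14.4% of all genes tested and 14.2% of the genes with a mean of at least 50 CPM. They were the 2 highest for 1 of the 38, Fosl1, beside 10.8% of all genes tested. By role, they were lowest for 6 of 9 AP-1 genes and relatives, 7 of 13 other transcription factors, 6 of 10 feedback and other response genes, 3 of 3 NF-κB feedback genes and 2 of 3 heat shock genes. This pair of mice was singled out after the values were seen, so the shares are a description and carry no test. When the salivary genes were removed before scaling, the pair was lowest for 22 of the 38.

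Several values moved with this order. The salivary genes took 40.2% of the counts of IL-21isoTg mouse 3, the largest share. Wild-type mouse 1 had the next largest share, close to that of IL-21isoTg mouse 1 (22.6% and 22.1%). Fos was at 958 CPM in wild-type mouse 1 and 3132.5 CPM in IL-21isoTg mouse 1. The summed macrophage markers (7 genes, 5 of them past the filter) were at 167 and 145 CPM in wild-type mouse 1 and IL-21isoTg mouse 3 and at 199 to 367 CPM in the other mice. Most of this sum was Cd14 (125 to 350 CPM over the 6 mice), and the other markers did not share its order. Csf1r was highest in wild-type mouse 1 (13.6 CPM) and next in IL-21isoTg mouse 3 (10.2 CPM). Cd68 was highest in wild-type mouse 1 (6.22 CPM). Lyz2 was lowest in IL-21isoTg mouse 3 (2.15 CPM) but not in wild-type mouse 1 (5.19 CPM). Mrc1 and the defining markers Adgre1 and Itgam were at or near 0, at no more than 0.933, 2.42 and 0.144 CPM. The part of these in the order of the mice was not tested.

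Among the other transcription factors, Klf2 and Egr1 had the widest ranges, with ratios of 3.74 and 3.1 between the highest and the lowest mouse. Egr1 encodes a zinc finger factor induced through serum response elements. It was at 643, 1967 and 1855 CPM in the wild-type mice and 1992, 1406 and 895 CPM in the IL-21isoTg mice, and its log2 fold change was -0.06 (standard error 0.46, edgeR adjusted p = 0.986). Klf2, known from endothelium and lymphocytes, was at 24.9, 93.3 and 77.7 CPM in the wild-type mice and 73.0, 47.8 and 26.0 CPM in the IL-21isoTg mice. Its log2 fold change of -0.41 (standard error 0.51, edgeR adjusted p = 0.892) was the lowest of the 38. For both genes the 2 lowest mice were again one of each genotype, and the groups overlapped.

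The 3 genes with the smallest p in this role were Nr4a3, Cebpb and Myc. Nr4a3, an orphan nuclear receptor, was at 49.7, 42.0 and 51.5 CPM in the wild-type mice and 47.4, 67.2 and 78.7 CPM in the IL-21isoTg mice, and its log2 fold change was 0.43 (standard error 0.21, edgeR adjusted p = 0.809). Here IL-21isoTg mouse 3 was the highest of all 6 mice, unlike for Fos. Cebpb, a factor of mammary lineage development and the acute-phase response, was at 288, 310.1 and 316 CPM in the wild-type mice and 456, 477 and 296 CPM in the IL-21isoTg mice. IL-21isoTg mice 1 and 2 stood above all wild-type mice and IL-21isoTg mouse 3 did not. The log2 fold change of Cebpb was 0.43 (standard error 0.22, edgeR adjusted p = 0.809). Cebpb shares 312 bp of exon with Tmem189 on the opposite strand, whose counts were 44.8% to 48.0% of those of Cebpb in every mouse. The remaining factors, Egr2, Egr3, Nr4a1, Nr4a2, Klf4, Klf6, Cebpd and Csrnp1, had log2 fold changes of -0.21 to 0.37 and overlapped between genotypes. Klf6 had the narrowest range of all 38, with a ratio of 1.28 between the highest and the lowest mouse.

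Of the feedback genes, Socs3 varied most. Its product is induced by STAT3 and blocks signalling of IL-6 family receptors, and STAT3 is also the main factor downstream of the IL-21 receptor. Socs3 (chromosome 11, 117966079 to 117970047, minus strand) was at 167, 697 and 575 CPM in the wild-type mice and 748, 475 and 322 CPM in the IL-21isoTg mice. Wild-type mouse 1 was lowest and IL-21isoTg mouse 1 highest, and the groups overlapped. The ratio of the highest to the lowest mouse was 4.47 and the log2 fold change between genotypes 0.10 (standard error 0.51, edgeR adjusted p = 0.977). Dusp1, a phosphatase that switches off MAP kinases, was at 200.5, 421 and 396 CPM in the wild-type mice and 409, 341 and 218 CPM in the IL-21isoTg mice, and its log2 fold change was -0.07 (standard error 0.33, edgeR adjusted p = 0.974). Ier2, an early gene of the same short-lived kind, and Zfp36, whose product speeds the decay of AU-rich mRNAs, had ratios of 2.69 and 2.14 between the highest and the lowest mouse and were lowest in the same 2 mice.

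Btg2 and Ier3 moved less between mice. Btg2, an antiproliferative gene, was at 346, 405 and 418 CPM in the wild-type mice and 567, 381 and 509.9 CPM in the IL-21isoTg mice, and its log2 fold change was 0.32 (standard error 0.21, edgeR adjusted p = 0.820). Ier3, which modulates cell survival, was at 596, 571 and 671 CPM in the wild-type mice and 661, 953 and 695 CPM in the IL-21isoTg mice. Its log2 fold change was 0.33 (standard error 0.22, edgeR adjusted p = 0.820), and IL-21isoTg mouse 2 stood above the other mice. The other genes of this role, Ier2, Ier5, Zfp36, Dusp2 and the small GTPase gene Rhob, had log2 fold changes of -0.05 to 0.23.

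The NF-κB feedback genes encode IκBα (Nfkbia), IκBζ (Nfkbiz) and the ubiquitin-editing enzyme A20 (Tnfaip3). Nfkbia was at 757, 879.8 and 1041 CPM in the wild-type mice and 855, 929 and 754 CPM in the IL-21isoTg mice. Nfkbiz was at 459, 556 and 627 CPM in the wild-type mice and 555, 546 and 413 CPM in the IL-21isoTg mice. Tnfaip3 was at 243, 287 and 307 CPM in the wild-type mice and 351, 405 and 280.2 CPM in the IL-21isoTg mice. All 3 were lowest in wild-type mouse 1 and IL-21isoTg mouse 3, over a narrower range than Fos (ratios of 1.38 to 1.67). Their log2 fold changes were -0.08 (standard error 0.21), -0.12 (standard error 0.21) and 0.31 (standard error 0.20), with edgeR adjusted p-values of 0.820 to 0.958.

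The heat shock genes followed a partly different order. Dnajb1, an HSP40 co-chaperone, was at 236, 356 and 409.6 CPM in the wild-type mice and 315, 384 and 243 CPM in the IL-21isoTg mice. Hspa1a, encoding the inducible HSP70, was at 338, 681 and 913 CPM in the wild-type mice and 470.1, 668 and 421 CPM in the IL-21isoTg mice. Hspa1b, its copy, was at 502, 1157 and 1658 CPM in the wild-type mice and 688, 1118 and 734 CPM in the IL-21isoTg mice. Wild-type mouse 3 was the highest for all 3 genes, while IL-21isoTg mouse 1, the highest for Egr1 and Socs3, was in the lower part of the range. The log2 fold changes were -0.09 (standard error 0.26), -0.31 (standard error 0.37) and -0.38 (standard error 0.42), with edgeR adjusted p-values of 0.962, 0.889 and 0.881. Without wild-type mouse 1 those of Hspa1a and Hspa1b were -0.61 and -0.72, with edgeR adjusted p-values of 0.711 and 0.708.

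Hspa1a (chromosome 17, 34969190 to 34972156) and Hspa1b (34956436 to 34959238), both on the minus strand, are near-identical copies, and their counts are uncertain for that reason. Of the 100-base windows of the annotated transcripts, 48.6% of Hspa1a were found in Hspa1b and 49.9% of Hspa1b in Hspa1a, while for 35 of the other 36 genes no such window occurred in another gene, the exception being Zfp36 with 0.0869%. The ratio of Hspa1a to Hspa1b counts ran from 0.550 to 0.684 over the 6 mice. Hspa1a also shares 564 of 2967 bp of exon with Gm20481 on the opposite strand. The Gm20481 counts were 39.1% to 46.3% of those of Hspa1a, and no such overlap was found for Hspa1b. As the strand setting is not given in the sources used here, this ratio is uncertain on that account too. The similarity of the 2 copies extends upstream. In RefSeq (GRCm38.p6) the 250 bases before the start of the 2 genes are the same at 247 positions, and they are shown for that reason, with the letters of an NF-κB site in capitals.

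Hspa1a, chr17:34972157-34972406, minus strand: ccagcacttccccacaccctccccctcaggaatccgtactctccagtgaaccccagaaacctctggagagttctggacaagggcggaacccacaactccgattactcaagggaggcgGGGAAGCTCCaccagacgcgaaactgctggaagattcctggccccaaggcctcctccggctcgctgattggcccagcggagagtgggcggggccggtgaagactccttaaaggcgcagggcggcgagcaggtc
Hspa1b, chr17:34959239-34959488, minus strand: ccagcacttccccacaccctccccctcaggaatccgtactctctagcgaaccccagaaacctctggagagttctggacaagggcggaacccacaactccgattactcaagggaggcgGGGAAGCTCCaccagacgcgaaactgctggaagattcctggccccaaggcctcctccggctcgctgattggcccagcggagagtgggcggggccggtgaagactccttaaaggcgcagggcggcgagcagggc

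RefSeq promoters matched 31 of the 38 genes by symbol (not Fosl1, Nfkbiz, Myc, Egr1, Ier2, Cebpd or Egr3), and the 250 bases before each start were searched on both strands for motifs of the factors that these genes encode or answer to. The NF-κB site was found in 10 of the 31 (32.3%), beside 8.23% of all 27025 genes with a promoter. Among the 10 are Nfkbia and Tnfaip3, which are on the list as NF-κB feedback genes. Hspa1a and Hspa1b are also among them, and their near-identical windows are not separate finds. The share is thus a description and carries no test. TGACGTCA, the cAMP response element, was in 3 of 31 (9.68%), beside 1.77% of all. The CArG box, the core of the serum response element, was in 2 of 31 (6.45%), beside 1.62%, and TGANTCA, the AP-1 site, in 2 of 31 (6.45%), beside 7.82%. TTCNNNGAA, the STAT site, was in 2 of 31, Socs3 and Zfp36, beside 8.13%, and GCGTGGGCG, the EGR site, in 1 of 31, beside 0.622%. The heat shock element was searched for only as a single strict pattern, which was in 0 of 31 and in 0.514% of all genes. Looser forms of this element were not searched for. The 0 therefore does not show that the Hspa1a and Hspa1b windows lack it. A match is a run of letters and not a measured binding site, and a motif further from the start would not be seen. The promoters below are those of the 3 genes with the widest range between mice (Fosb, Socs3 and Fos), of Klf6 with the narrowest, and of Nfkbia. Starts are those of RefSeq, which differ from the GENCODE spans given above for some genes: the whole Socs3 window lies inside the GENCODE gene, and the Fosb window reaches a few bases into it. Capitals mark an NF-κB site in Fos, Fosb and Nfkbia and the STAT site in Socs3, and the Klf6 window held none of the motifs.

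Fos, chr12:85473640-85473889, plus strand: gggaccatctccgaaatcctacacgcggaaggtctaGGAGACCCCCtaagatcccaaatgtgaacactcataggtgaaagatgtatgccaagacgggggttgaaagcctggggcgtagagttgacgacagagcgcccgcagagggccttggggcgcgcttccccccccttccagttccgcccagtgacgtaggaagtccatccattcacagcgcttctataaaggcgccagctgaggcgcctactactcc
Fosb, chr7:19310046-19310295, minus strand: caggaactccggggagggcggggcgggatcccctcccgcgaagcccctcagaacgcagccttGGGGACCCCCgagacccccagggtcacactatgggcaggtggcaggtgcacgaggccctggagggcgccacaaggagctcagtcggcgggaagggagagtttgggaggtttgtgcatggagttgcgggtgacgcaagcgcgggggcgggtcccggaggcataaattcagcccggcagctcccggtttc
Socs3, chr11:117969367-117969616, minus strand: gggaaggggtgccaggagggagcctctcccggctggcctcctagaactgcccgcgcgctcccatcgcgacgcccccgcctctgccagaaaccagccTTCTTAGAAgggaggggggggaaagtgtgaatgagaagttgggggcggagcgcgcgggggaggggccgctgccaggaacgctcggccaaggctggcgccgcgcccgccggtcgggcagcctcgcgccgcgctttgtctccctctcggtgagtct
Klf6, chr13:5861239-5861488, plus strand: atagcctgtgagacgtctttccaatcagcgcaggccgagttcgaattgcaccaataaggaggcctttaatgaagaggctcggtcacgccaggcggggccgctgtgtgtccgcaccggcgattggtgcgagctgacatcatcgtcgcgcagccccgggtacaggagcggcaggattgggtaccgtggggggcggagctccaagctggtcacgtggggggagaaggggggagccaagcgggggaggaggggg
Nfkbia, chr12:55492648-55492897, minus strand: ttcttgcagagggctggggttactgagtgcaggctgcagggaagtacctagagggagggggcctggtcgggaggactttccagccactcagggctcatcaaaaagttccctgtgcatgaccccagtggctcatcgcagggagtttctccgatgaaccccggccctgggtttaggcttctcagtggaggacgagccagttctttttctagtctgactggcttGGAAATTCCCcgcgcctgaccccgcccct

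The NF-κB letters lay 214 bases before the start of Fos, 188 before that of Fosb and 29 before that of Nfkbia, and the STAT letters 154 bases before the RefSeq start of Socs3. All 3 windows of Fosb, Fos and Nfkbia held the NF-κB letters, and the ratio of the highest to the lowest mouse was 4.9, 3.8 and 1.38. Whether such letters relate to the range between mice was not tested.

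Genes around the 38 in the same pathways did not all share their order. Of 38 other early genes, all tested, 0 were called at an adjusted p under 0.05 and 4 were higher in IL-21isoTg mice at an unadjusted p under 0.05 (10.5%, beside 3.19% of all genes tested higher and 5.82% in either direction). These were Ccn2, encoding a matricellular growth factor, Klf9, Gem and Bhlhe40. Ccn2 was at 118, 136.5 and 114 CPM in the wild-type mice and 245, 143 and 206 CPM in the IL-21isoTg mice, a log2 fold change of 0.69 (standard error 0.22, edgeR adjusted p = 0.809), without overlap. Klf9 was at 106, 111 and 108 CPM in the wild-type mice and 175.0, 118 and 215 CPM in the IL-21isoTg mice, a log2 fold change of 0.64 (standard error 0.23, edgeR adjusted p = 0.809), also without overlap. Gem, a small GTPase gene, was at 89.1, 81.2 and 102 CPM in the wild-type mice and 135, 121 and 108 CPM in the IL-21isoTg mice (log2 fold change 0.41). Bhlhe40, a repressor of the circadian clock, was at 505, 504 and 659.6 CPM in the wild-type mice and 815, 661 and 878 CPM in the IL-21isoTg mice (log2 fold change 0.50). Neither overlapped between the genotypes, although the nearest Bhlhe40 values were almost equal. In all, 6 of the 38 other early genes were higher in IL-21isoTg mice without overlap (15.8%) and 0 lower. Of all genes tested, 5.54% were higher without overlap and 12.1% did not overlap in either direction.

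Within this list, Ptgs2, Klf5, Dusp5, Errfi1, Nfil3 and Spry2 were highest in wild-type mouse 1 and IL-21isoTg mouse 3, the order of Fosl1, and Per1, Spry1, Spry4, Hes1, Ccn1 and Ccnl1 were lowest in them. Ptgs2, which encodes the inducible cyclooxygenase COX-2, was at 166, 54.9 and 69.8 CPM in the wild-type mice and 69.9, 78.3 and 125 CPM in the IL-21isoTg mice. Klf5 was at 315, 104 and 133 CPM in the wild-type mice and 92.4, 184 and 247 CPM in the IL-21isoTg mice. For both genes the values in the 2 genotypes overlapped.

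Of 16 other NF-κB pathway genes, 0 were lowest and 7 were highest in that pair of mice (43.8%), Nfkb1, Nfkb2, Rel, Relb, Bcl3, Tnip1 and Ccl2, while the 3 feedback genes above were lowest in it. Over all genes tested, the pair was lowest for 14.4% and highest for 10.8%. Nfkb1, which encodes the p50 precursor, was at 342, 164 and 189.5 CPM in the wild-type mice and 143, 237 and 262 CPM in the IL-21isoTg mice. At an unadjusted p under 0.05, 2 of the 16 were higher in IL-21isoTg mice (12.5%). Of all genes tested, 3.19% were higher and 5.82% differed in either direction at that threshold. The 2 genes were the chemokine gene Cxcl2 at a log2 fold change of 0.99 (standard error 0.34, edgeR adjusted p = 0.809) and the adhesion gene Icam1 with 0.50 (standard error 0.21, edgeR adjusted p = 0.809). Cxcl2 was at 62.3, 50.1 and 73.2 CPM in the wild-type mice and 62.2, 164 and 141 CPM in the IL-21isoTg mice, so that IL-21isoTg mouse 1 lay within the wild-type range. Icam1 was at 415, 283 and 280.2 CPM in the wild-type mice and 460.0, 488 and 432 CPM in the IL-21isoTg mice, without overlap.

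Of 19 other heat shock and chaperone genes, 0 were called, 4 had a log2 fold change above 0 and 15 below, with a median of -0.21. Of all genes tested, 47.9% were above 0, and the median was -0.019. The split of the 19 was not examined with single mice left out. Hspb8, a small heat shock protein gene, was the only one of the 19 at an unadjusted p under 0.05 (5.26%, beside 5.82% of all genes tested). Hspb8 was at 42.6, 28.4 and 33.0 CPM in the wild-type mice and 51.1, 53.9 and 50.4 CPM in the IL-21isoTg mice, a log2 fold change of 0.58 (standard error 0.18, edgeR adjusted p = 0.809). The gene with the next smallest p was Hspd1, the mitochondrial chaperonin, and its log2 fold change was -0.50 (standard error 0.24, edgeR adjusted p = 0.809). Hspd1 was at 337, 204 and 226 CPM in the wild-type mice and 162, 223 and 157 CPM in the IL-21isoTg mice, which overlapped. Of 17 upstream kinases and factors, 0 were called and Creb1, which binds the cAMP response element, had an unadjusted p under 0.05. Creb1 was at 46.5, 46.2 and 43.6 CPM in the wild-type mice and 32.9, 39.0 and 34.1 CPM in the IL-21isoTg mice, a log2 fold change of -0.36 (standard error 0.14, edgeR adjusted p = 0.809), without overlap. Hsf2 was next, and its log2 fold change was -0.33 (standard error 0.20, edgeR adjusted p = 0.810). Hsf2 was at 12.7, 11.4 and 12.1 CPM in the wild-type mice and 9.65, 10.7 and 8.30 CPM in the IL-21isoTg mice, without overlap.

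**Figure D5:**
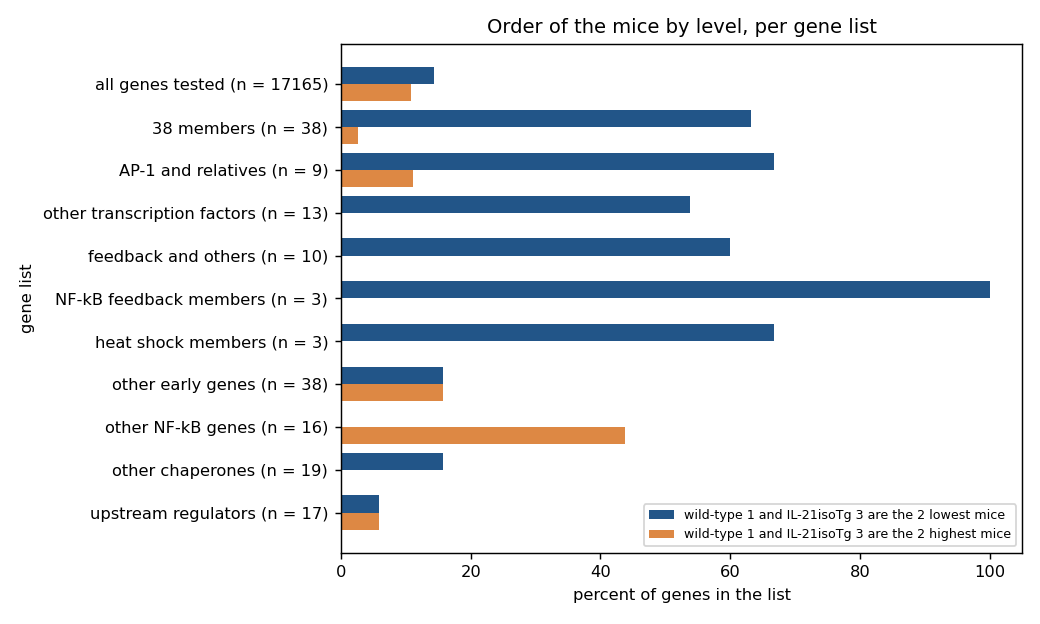
Percent of genes in each list (x axis; list sizes in the labels) for which wild-type mouse 1 and IL-21isoTg mouse 3 were the 2 lowest (blue) or the 2 highest (orange) of the 6 mice. The 38 genes reach 63.2% lowest against 14.4% of all genes tested, and the other NF-κB genes reach 43.8% highest.

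The genes outside the list whose log2 CPM was most like the mean of the 38 over the 6 mice were Inafm2, Irs1, Slmap, Galnt15, Fgfr1, Gm37790, Zfp532, Islr2, Gucy1b1 and Hey2, with Pearson r of 0.984 to 0.997 over 6 mice. Irs1, the insulin receptor substrate, was at 13.1, 58.5 and 63.9 CPM in the wild-type mice and 60.0, 60.3 and 19.2 CPM in the IL-21isoTg mice. Fgfr1, a fibroblast growth factor receptor, was at 153, 243 and 283 CPM in the wild-type mice and 255, 256 and 188 CPM in the IL-21isoTg mice. The mice fall into 2 low and 4 high ones, so the correlations are a measure of likeness only. Where exons of other genes lie opposite those of the 38, as Junos does for Jun (14.2% to 15.2% of the Jun count) and Gm11175 for Jund (72.1% to 77.0% of the Jund count), reads of the 2 strands cannot be told apart without the counting setting.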

How the data were processed

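Poly(A)-selected, directional libraries of MEC RNA, 1 for each of 3 wild-type and 3 IL-21isoTg mice, were read as 150-bp pairs. The authors deposited raw counts per gene for each mouse; the submitters' notes name FastQC 0.11.7, Trimmomatic 0.38, HISAT2 2.1.0, SAMtools 1.9, featureCounts 1.6.3, DESeq2 1.24.0 and build mm10 with no roles, and the strand setting is not given in the sources used here. The deposited size-factor-normalized counts and the authors' own comparison (fold change, p-value and adjusted p per gene) were not used.

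From the counts, genes were filtered with filterByExpr (minimum count 10, minimum total 15) in edgeR 4.0.16 under R 4.3.3, scaled with TMM, and compared with the robust quasi-likelihood test with genotype as the only term, with Benjamini-Hochberg adjustment over 17165 genes and calls at 0.05. Standard errors are the log2 fold change divided by the square root of its F statistic. Log2 CPM for spreads used a prior count of 2. DESeq2 1.42.0, limma-voom (limma 3.58.1), the likelihood ratio test, other scalings and filters, a replicate block and leaving out each mouse were alternatives, and the salivary share as a covariate was added after seeing the data. The fit was tested on simulated data. Gene positions and exon lengths are from GENCODE M21 (GRCm38); 3 counts correspond to 0.112 to 0.280 CPM, which covers counting error only. Each library is a separate mouse. The edgeR p-values set the genotype difference against the spread between mice, which the fit moderates across genes. Each mouse was also a separate library, so that spread holds differences between preparations as well.

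The 38 genes and the other lists were chosen with earlier results of these data known. Values for every mouse are given for 10 named genes, the 3 with the smallest p in each role, those at an unadjusted p under 0.05 or without overlap and, chosen after their values were seen, Fosb, Klf2, Ptgs2, Klf5 and Nfkb1; of the other lists, the 2 with the smallest p and any at an unadjusted p under 0.05.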

Additional observations from a re-analysis of the deposited data

How the results depend on the processing

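Over all genes tested, 0 were called, but without the filter on low counts 14 were, by DESeq2 80 (72 higher and 8 lower in IL-21isoTg mice), by edgeR's likelihood ratio test 65 (52 and 13), and with 1 mouse left out 0 to 6, the 6 without wild-type mouse 3. None of the 38 genes was called under any of these. At an unadjusted p under 0.05, the 1 of the 38 became 3 with the salivary share as a covariate (Cebpb, Gadd45b and Tnfaip3; chosen after seeing the data) and 1 to 4 with 1 mouse left out: 4 without wild-type mouse 1 (Fosl2, Gadd45b, Hspa1a and Hspa1b), 2 without IL-21isoTg mouse 2 (Egr3 and Gadd45b) and 2 without IL-21isoTg mouse 3 (Cebpb and Gadd45b). The count over all genes tested moved too, from 999 of 17165 to 1116 of 17165 with the covariate. It was 1224 of 17667 without wild-type mouse 1, 1566 of 17634 without IL-21isoTg mouse 2 and 919 of 17965 without IL-21isoTg mouse 3. Without the filter it was 1286 of 28839, and by the likelihood ratio test 1011 of 17165. At the same threshold, the 1 upstream gene became 0 without the filter, by the likelihood ratio test and with the covariate, and 0 to 1 with 1 mouse left out. The 2 NF-κB genes became 1 by the likelihood ratio test and with the covariate, and 0 to 2 with 1 mouse left out. The 4 other early genes became 2 by the likelihood ratio test, and 0 to 6 with 1 mouse left out. The 1 chaperone became 2 without the filter and 1 to 4 with 1 mouse left out. The cause of these shifts was not tested. The median log2 fold change of the 38 ran from -0.155 to 0.207 with 1 mouse left out and was 0.209 with the covariate. Their median SD within genotype ran from 0.268 (without wild-type mouse 1) to 0.382.

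The direction reversed by limma-voom for Egr1 (0.000366 on the log2 scale) and with the covariate for Fos (0.093), Fosb (0.15), Jund (0.11), Egr1 (0.24), Ier2 (0.28), Dusp1 (0.15) and Dnajb1 (0.060). Leaving out single mice changed the sign of 21 of the 38 log2 fold changes. It ran from -0.644 to 0.0498 for Fos, from -0.674 to 0.0663 for Fosb, from -0.681 to 0.37 for Fosl1, from -0.222 to 0.254 for Junb, from -0.31 to 0.188 for Jund, from -0.167 to 0.161 for Atf3, from -0.404 to 0.201 for Egr1, from -0.569 to 0.0519 for Egr3, from -0.115 to 0.232 for Nr4a1, from -0.20 to 0.258 for Klf4, from -0.358 to 0.281 for Ier2, from -0.131 to 0.0827 for Ier5, from -0.143 to 0.258 for Zfp36, from -0.329 to 0.152 for Dusp1, from -0.29 to 0.474 for Socs3, from -0.177 to 0.169 for Rhob, from -0.171 to 0.0474 for Nfkbia, from -0.216 to 0.0165 for Nfkbiz, from -0.607 to 0.0288 for Hspa1a, from -0.723 to 0.0298 for Hspa1b and from -0.274 to 0.087 for Dnajb1. Scaling by DESeq2's size factors or the upper quartile, removing the salivary genes, and a filter of 10 counts in every mouse reversed 0 of the 38.

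The labels do not say whether the replicate numbers pair the mice. Same-numbered mice correlated at -0.224, 0.0677 and -0.0619 in their deviations from the group means, which shows no pairing but cannot exclude it. With the replicate number as a block, 0 genes were called, 657 rather than 999 genes had an unadjusted p under 0.05, and 1 of the 38 did (Gadd45b, log2 fold change 0.60, edgeR adjusted p = 0.992). Under this block 2 of the other early genes, 1 of the NF-κB genes and 0 of the upstream genes had an unadjusted p under 0.05, and Jund reversed to 0.000681.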
